A study of Drosophila melanogaster with 36 samples.

Results

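The regions described here are the 40-kb bins of the Drosophila genome with the densest contacts to their own surroundings in OSCs, cultured somatic cells of the fly ovary that express Piwi and its piRNAs. Members are the 10% of bins with the highest local contact density in Control-KD cells, 245 of 2454 bins tested. The matrices hold 2977 bins of arms X, 2L, 2R, 3L and 3R, of which 2942 were kept in all 9 matrices, and 2454 of these lie at least 2 Mb from an arm end. Local contact density is the contact value of a bin divided by the mean of its arm at that distance, averaged over all partner bins 40 to 400 kb away in the same arm. Bins were ranked by it in each of 4 Control-KD matrices and the 4 ranks were averaged, so the levels of members in Control-KD are a description of how they were chosen. Coordinates are those of the files, on genome build dm3.

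Hi-C was performed in OSCs transfected with siRNA against Piwi, Nxf2, H1, Egg or HP1a, each beside Control-KD cells that received siRNA against EGFP. H1-KD and Egg-KD share 1 Control-KD, which leaves 4 Control-KD and 5 KD matrices. HP1a-KD and its Control-KD are labelled as 2 days of KD, and the labels give no time for the others. The methods of the study state 4 days for Piwi-KD. All groups come from the same cell line, the loss of each target protein cannot be read from Hi-C values, and each matrix was merged by the authors from 2 replicates. No SD, n or p-value between replicates can therefore be given, and the yardstick for every change is how far the 4 Control-KD matrices lie from one another in their 6 pairs. The root mean square of the 6 differences is called the control-pair spread. The matrices hold between 25463370 contacts in H1-KD and 73205693 in Piwi-KD, as recovered from the corrected values.

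Chromosomes of flies are folded into topologically associating domains (TADs), stretches whose pieces touch each other more often than they touch their neighbours, and TADs of silent chromatin are often larger and less interrupted than those around active genes. Piwi is guided by piRNAs to nascent transposon transcripts and silences their loci together with Nxf2, a partner that binds the transcripts. Egg (Eggless, also known as SETDB1) places H3K9 methylation, HP1a binds this mark, and linker histone H1 compacts chromatin and acts with Piwi in OSCs. A bin of high local contact density lies in chromatin that touches its own neighbourhood often. No annotation on dm3 was used here, so no gene is assigned to a bin.

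The members formed 71 runs of adjacent bins, of which 29 were single bins, 22 had 2 or 3 bins and 20 had 4 bins or more. These 20 long runs held 165 members, 67.35% of all. Adjacent bins average over overlapping surroundings, so that runs follow in part from the rule, and the run lengths are a description. The longest was a stretch of 21 bins from 23520001 to 24360000 on 3R, 840 kb in length. It was followed by 12 bins from 17720001 to 18200000 on 2L, 12 bins from 15640001 to 16120000 on 2R, 11 bins from 16920001 to 17360000 on 2L and 11 bins from 4760001 to 5200000 on 3L. The arms differed in the share of their tested bins that were members. Arm 3R had 73 members of 595 bins (12.27%), 2L had 54 of 467 (11.56%), 3L had 48 of 508 (9.45%), X had 42 of 458 (9.17%) and 2R had 28 of 426 (6.57%). On 2L, 37 of the 54 members lay between 15720001 and 18200000, where they took 37 of 62 bins. The bins with the highest mean rank were 2L 15800001 to 15840000 and its neighbour 15760001 to 15800000, both in this stretch, and 3R 23800001 to 23840000 in the longest run.

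Contact of the members with their surroundings was about 1.4 times the arm mean in Control-KD. Naming each Control-KD by its series, the median local contact density of members was 1.39 in Piwi-series Control-KD, 1.38 in Nxf2-series Control-KD, 1.41 in H1/Egg-series Control-KD and 1.39 in HP1a-series Control-KD. This order is kept where 4 Control-KD values are given below. It was 1.37 in Piwi-KD, 1.36 in Nxf2-KD, 1.38 in Egg-KD, 1.33 in H1-KD and 1.41 in HP1a-KD. H1-KD was the lowest of the 9 values, and the other tested bins had their highest median there, 0.927 compared with 0.893 to 0.909 in the remaining 8 matrices. No member fell under 1 in any of the 9 matrices, the lowest being 1.02 in H1-KD. The threshold cuts a continuous range. The last members had mean ranks of 2212.25, 2212 and 2211.25, and the first bins left out 2210, 2208.75 and 2208. The last member, 3L 14960001 to 15000000, had densities of 1.29, 1.33, 1.29 and 1.247 in the 4 Control-KD matrices, while the first bin left out, X 2600001 to 2640000, had 1.31, 1.28, 1.28 and 1.27.

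**Figure D1:**
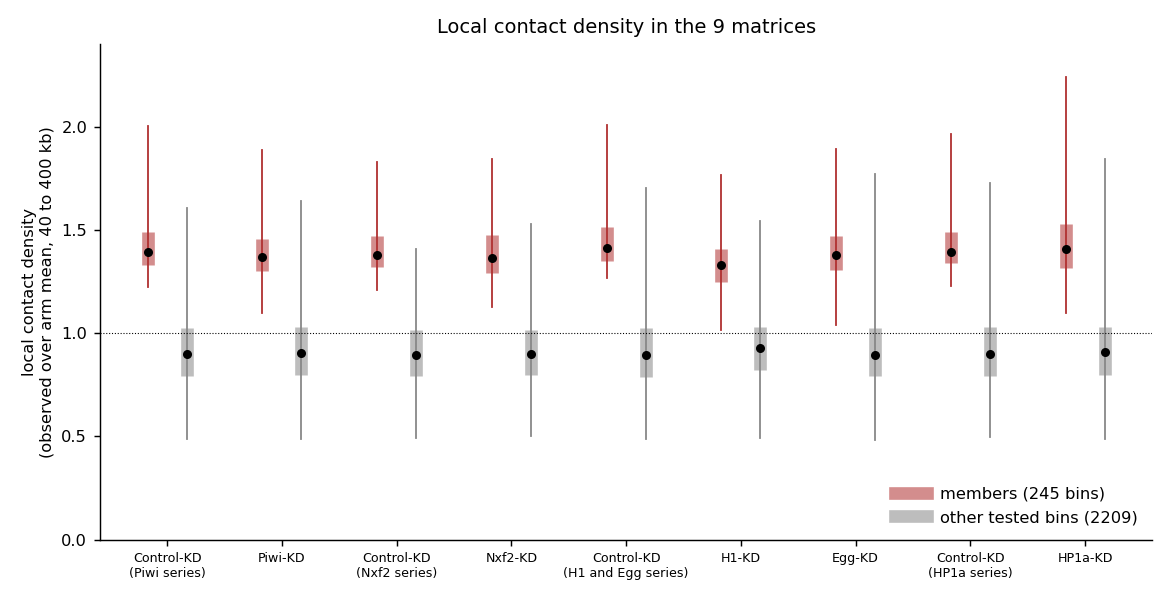
Local contact density (observed over the arm mean at 40 to 400 kb, linear axis from 0) of 245 members and 2209 other tested bins in each of the 9 matrices. Points are medians, thick bars span the quartiles and thin lines the lowest to the highest bin. The members' median is lowest in H1-KD, at 1.33.

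The member list was largely shared by all matrices. Of the top 10% of bins in each KD matrix taken alone, which the rule did not use, 209 were members in Nxf2-KD, 205 in Egg-KD, 204 in Piwi-KD, 199 in HP1a-KD and 196 in H1-KD. Since the lists are equally long, these are 85.31, 83.67, 83.27, 81.22 and 80% of each list. The 4 Control-KD matrices, which chose the members, shared 223 to 235. In all, 141 members (57.55%) were in the top 10% of all 9 matrices, and 4 were in that of no KD matrix. The list depends on the correction of the matrix. Choosing the top 10% on recovered contacts before ICE, the correction that gives every bin the same total, kept 81 members (33.06%), whereas leaving out partner bins at 40 kb kept 237. Members had fewer contacts before correction, with a median of 0.86 to 0.90 times that of the other bins in 8 matrices and 0.936 times in HP1a-KD.

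The local contact density of the members was lower upon H1-KD. For each bin, the log2 ratio of the density in KD to that in its own Control-KD was taken and the median of the tested bins of the arm subtracted. Its median over members was -0.15 in H1-KD, 9.94% lower relative to the tested bins of their arm, compared with 0.0119 in the other tested bins. Before this centring, the median density of members went from 1.41 in Control-KD to 1.33 in H1-KD. That of the other bins went from 0.896 to 0.927. The centred change in H1-KD was below 0 in 233 of 245 members (95.1%), compared with 44.95% of the other bins. Where Piwi-series was divided by H1/Egg-series Control-KD, 73.88% of members were below 0. The largest median of members in a pair of Control-KD matrices was 0.0382 in size. The change was graded over the whole range of densities. From the members downward, the medians of successive deciles of bins were -0.15, -0.083, -0.047, -0.014, -0.007, 0.024, 0.029, 0.048, 0.054 and 0.077. The Control-KD used as denominator also ranked the deciles, so part of this grading follows from the ranking. Nxf2-series divided by H1/Egg-series Control-KD had -0.0382 in members, -0.0282 in the next decile and 0.0411 in the lowest. From members to the lowest decile, Egg-KD ran from -0.047 to 0.0409 and Nxf2-KD from -0.0263 to 0.024. The SD of density over all tested bins was 0.191 in H1-KD, compared with 0.232 in its Control-KD and 0.209 to 0.231 in the other KD matrices. Members chosen from the 3 other Control-KD matrices had a median change of -0.147, and the median ranged from -0.122 to -0.105 with Piwi-series and Nxf2-series Control-KD as denominator. H1-KD has the fewest contacts of the 9 matrices, and the median counting error of a member's log2 density there was 0.018.

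Changes of the members were smaller in the other knockdowns. The median change of members was -0.047 in Egg-KD, past the largest control pair, and -0.0295 in Piwi-KD, -0.0263 in Nxf2-KD and -0.006 in HP1a-KD, all within it. The other bins had medians of 0.005, 0.0018, 0.0031 and 0.0002. The Egg-KD value turned to 0.0028 with Nxf2-series Control-KD and to 0.0007 on recovered contacts before ICE. For HP1a-KD the change on recovered contacts was 0.163, and the members' total of recovered contacts per bin was also higher in HP1a-KD, by a median log2 of 0.15, compared with -0.028 in the other bins. Contacts between different arms made up 13.17% of the HP1a-KD matrix and 17.62% of its Control-KD. The part of these differences in the HP1a-KD values was not tested.

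**Figure D2:**
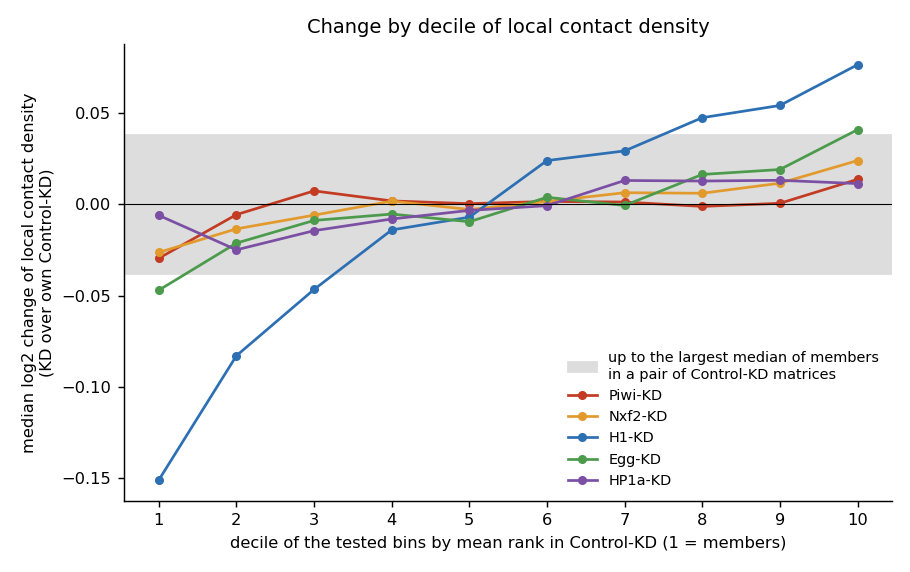
Median log2 change of local contact density (KD over own Control-KD, centred on each arm) for deciles of the 2454 tested bins, ordered by mean rank in Control-KD with the members as decile 1. The grey band reaches to 0.0382, the largest median of members in a pair of Control-KD matrices. It was taken from the members only, and in the lowest decile a control pair reached 0.0411. H1-KD runs from -0.15 in the members to 0.077 in the lowest decile.

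Bins were called decreased or increased when their change passed 3 control-pair spreads, a log2 change of 0.177. In H1-KD, 87 members decreased and 0 increased, where 7.38% of all tested bins decreased and 1.71% increased. In Egg-KD 19 members decreased, against 2.81% of all bins, in Piwi-KD 16, against 2.2%, in HP1a-KD 11, against 2.12%, and in Nxf2-KD 2, against 1.43%. These are 35.51, 7.76, 6.53, 4.49 and 0.82% of the members. Increases past the limit were seen in 4 members in HP1a-KD, where 1.06% of all bins increased, and in 0 members in Piwi-KD, Nxf2-KD and Egg-KD, where 0.0815, 0.0815 and 0.57% of all bins increased. Among the 6 control pairs, the most members past the limit in one direction were 8, where Piwi-series was divided by Nxf2-series Control-KD and where Nxf2-series was divided by H1/Egg-series Control-KD, against 1.18 and 0.693% of all bins in that direction. Altogether 137 members decreased in no knockdown, 87 in 1, 16 in 2, 4 in 3 and 1 in 4. This count was made for members only, so it cannot be set beside all tested bins. H1-KD and Egg-KD, which share 1 Control-KD, had 9 decreased members in common. The H1-KD count was 52 with Nxf2-series Control-KD and 23 on recovered contacts before ICE. The Nxf2-KD count, lowest with its own Control-KD, was 25 to 33 with the other 3.

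Piwi-KD and Egg-KD, which have no Control-KD in common, had 10 decreased members in common, 62.5% of those of Piwi-KD and 52.6% of those of Egg-KD. The overlap over all tested bins was not counted, and decreased members of both lay partly in the same runs. The 2L run at 16920001 to 17360000 held 5 in Piwi-KD and 4 in Egg-KD. The 3R run at 15920001 to 16280000 held 2 and 5. Over the 245 members, the changes in Piwi-KD and Egg-KD had a Pearson correlation of 0.634, compared with 0.525 for Piwi-KD and Nxf2-KD and 0.087 for Piwi-KD and H1-KD. Over the other tested bins the order differed, with 0.518 for Piwi-KD and Egg-KD, 0.677 for Piwi-KD and Nxf2-KD and 0.308 for Piwi-KD and H1-KD. Neighbouring bins share partner bins, and these correlations are descriptions of the bins and no test. Members in long runs had a lower median change than those in runs of 1 to 3 bins in Piwi-KD, at -0.046 and -0.0001, in Egg-KD, at -0.07 and 0.0016, in H1-KD, at -0.163 and -0.113, and in Nxf2-KD, at -0.0327 and -0.015. In HP1a-KD the order was the opposite, at -0.0011 and -0.0113. All 20 long runs had a median below 0 in H1-KD and in Nxf2-KD, and 18 were below 0 in Egg-KD, 14 in Piwi-KD and 10 in HP1a-KD. The run medians spanned -0.2396 to -0.067 in H1-KD and -0.1583 to -0.0002 in Nxf2-KD, so some in Nxf2-KD were close to 0. Runs below 0 were not counted in control pairs, and the Control-KD used as denominator also ranked the bins. Of all members, 73.47% were below 0 in Nxf2-KD. The share was 73.88% where Piwi-series was divided by H1/Egg-series Control-KD. At least 1 bin decreased past the limit in 16 long runs in H1-KD and in 1 in Nxf2-KD.

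The longest run, on 3R, showed the H1-KD change over most of its length. Its median local contact density was 1.56, 1.59, 1.62 and 1.57 in the 4 Control-KD matrices. It was 1.54 in Piwi-KD, 1.51 in Nxf2-KD, 1.58 in Egg-KD, 1.40 in H1-KD and 1.53 in HP1a-KD. H1-KD was lower than all 8 other matrices. The median change there was -0.21, and 13 of the 21 bins decreased past the limit, compared with 0 in each of the 4 other knockdowns. The second largest H1-KD decrease of any member was in this run, at 3R 24200001 to 24240000, where the density was 1.52 in Control-KD and 1.17 in H1-KD, a change of -0.39. The largest, -0.60, was at a single bin, 2R 2200001 to 2240000, with 1.5 in its own Control-KD and 1.02 in H1-KD. The other Control-KD matrices had 1.36 to 1.41 there. This bin had 1049 contacts at 40 to 400 kb in H1-KD, the fewest of any member, and a counting error of 0.058. On recovered contacts before ICE these 2 decreases were -0.22 and -0.37.

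**Figure D3:**
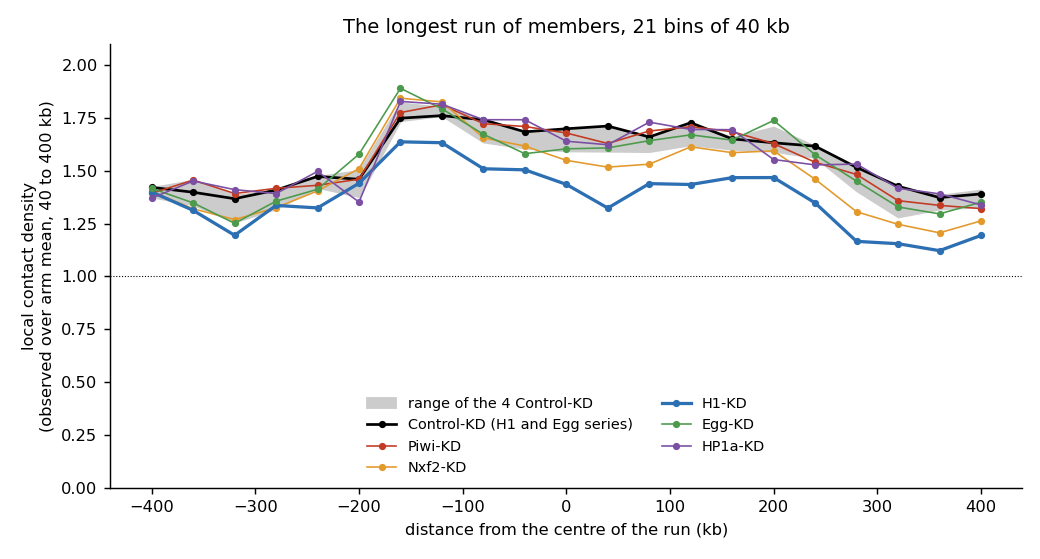
Local contact density along the longest run of members (21 bins on 3R), by distance in kb from the centre of the run, with the range of the 4 Control-KD matrices in grey. H1-KD has a median of 1.40 over the run and the 4 Control-KD matrices have medians from 1.56 to 1.62.

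The run of 11 bins at 16920001 to 17360000 on 2L had the lowest median change of any long run in Piwi-KD. Its median density was 1.45, 1.47, 1.5 and 1.49 in the 4 Control-KD matrices and 1.33 in Piwi-KD, 1.42 in Nxf2-KD, 1.38 in Egg-KD, 1.42 in H1-KD and 1.53 in HP1a-KD. The median change was -0.166 in Piwi-KD, -0.129 in Egg-KD, -0.119 in H1-KD, -0.056 in Nxf2-KD and 0.028 in HP1a-KD. Decreases past the limit were seen in 5 of its bins in Piwi-KD, 4 in Egg-KD and 1 in H1-KD. The 2 largest Piwi-KD decreases of any member were its first bins. At 16920001 to 16960000 the density was 1.65, 1.67, 1.73 and 1.70 in Control-KD, 1.38 in Piwi-KD, 1.5 in Nxf2-KD, 1.46 in Egg-KD, 1.57 in H1-KD and 1.76 in HP1a-KD, with a Piwi-KD change of -0.28. All KD values except that of HP1a-KD were below the range of Control-KD. The last bin of this run, 17320001 to 17360000, had the largest increase of a member in HP1a-KD, 0.22, and decreased in Piwi-KD (-0.20), Egg-KD (-0.25) and H1-KD (-0.23). On recovered contacts before ICE its HP1a-KD increase was 0.51. In the wider 2L stretch of 37 members, 12 decreased in H1-KD, 9 in Egg-KD, 7 in Piwi-KD and 0 in Nxf2-KD and HP1a-KD. Of all 245 members, 35.51% decreased in H1-KD, 7.76% in Egg-KD, 6.53% in Piwi-KD, 0.82% in Nxf2-KD and 4.49% in HP1a-KD.

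Another 9 bins of 3R, from 15920001 to 16280000, held the largest Egg-KD decreases. At 16240001 to 16280000 the density was 1.31, 1.21, 1.35 and 1.35 in Control-KD and 1.04 in Egg-KD, a change of -0.39. This was also the member that decreased in 4 knockdowns, with -0.21 in Piwi-KD, -0.20 in H1-KD and -0.178 in HP1a-KD. In Nxf2-KD its change was -0.107. The largest Nxf2-KD decrease was at X 3000001 to 3040000, with 1.32 in Control-KD and 1.14 in Nxf2-KD, a change of -0.22, where H1-KD had -0.38. The direction in Nxf2-KD turned on recovered contacts before ICE, where the change was 0.032, and the recovered contacts of the bin rose by a log2 of 0.25. On X as well, HP1a-KD had its largest decreases of members, -0.24 at 19920001 to 19960000 and -0.24 at 4800001 to 4840000. On recovered contacts before ICE these were 0.025, with the sign turned, and -0.055, while the recovered contacts of the 2 bins changed by a log2 of 0.28 and 0.053. The median change of members by arm in H1-KD was between -0.13 on 2L and 3R and -0.20 on 2R, and in Piwi-KD it was lowest on 2L, at -0.083, and was 0.0052 on 2R.

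The bins that hold the oligo-FISH probes of the study were not members. The bin 3L 17920001 to 17960000 stood at place 849 of 2454 and 3L 17520001 to 17560000 at place 2353, and the other, on 2L, lies under 2 Mb from the arm end.

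The change of the members depended on the distance to the partner bin. In H1/Egg-series Control-KD the mean contact of members over the arm mean was 0.955 at 40 kb, rose to 1.66 at 200 kb and 1.67 at 240 kb and was 1.32 at 400 kb. In H1-KD it was 0.976, 1.49, 1.48 and 1.23 at these distances. At 40 kb the other bins had 0.9997 in H1/Egg-series Control-KD, so members were lower there. Members were also lower at 40 kb in Piwi-series (0.9365 against 1.002) and HP1a-series Control-KD (0.9698 against 0.9963). In Nxf2-series Control-KD they were higher (1.0458 against 0.9897). The log2 change upon H1-KD was -0.1034 at 120 kb, -0.154 at 160 kb, -0.155 at 200 kb, -0.175 at 240 kb and -0.14 at 280 kb, beyond the largest control pair, which reached 0.1029, 0.053, 0.039, 0.105 and 0.126. At 40 kb it was 0.031, within the control pairs. At 920 kb the H1-KD change was 0.0589, where a control pair reached 0.0587. Egg-KD had its lowest value farther out, -0.151 at 360 kb, where a control pair reached 0.139, and also passed the control pairs at 440 kb, with -0.123 against 0.112, and at 560 kb, with -0.113 against 0.11. In HP1a-KD the change was -0.159 at 40 kb, where a control pair also reached 0.159, and 0.05 at 240 kb. Beyond the distances of the rule HP1a-KD passed the largest control pair with 0.0757 at 840 kb, 0.0861 at 880 kb and 0.089 at 960 kb, where a control pair reached 0.0643, 0.0765 and 0.076. These changes by distance are not centred, and the other bins also rose there. The other bins had 0.9774, 0.9685 and 0.9767 in HP1a-KD, compared with 0.9531, 0.9543 and 0.9562 in its Control-KD. Changes in Piwi-KD and Nxf2-KD stayed within the control pairs at all distances up to 1000 kb.

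**Figure D4:**
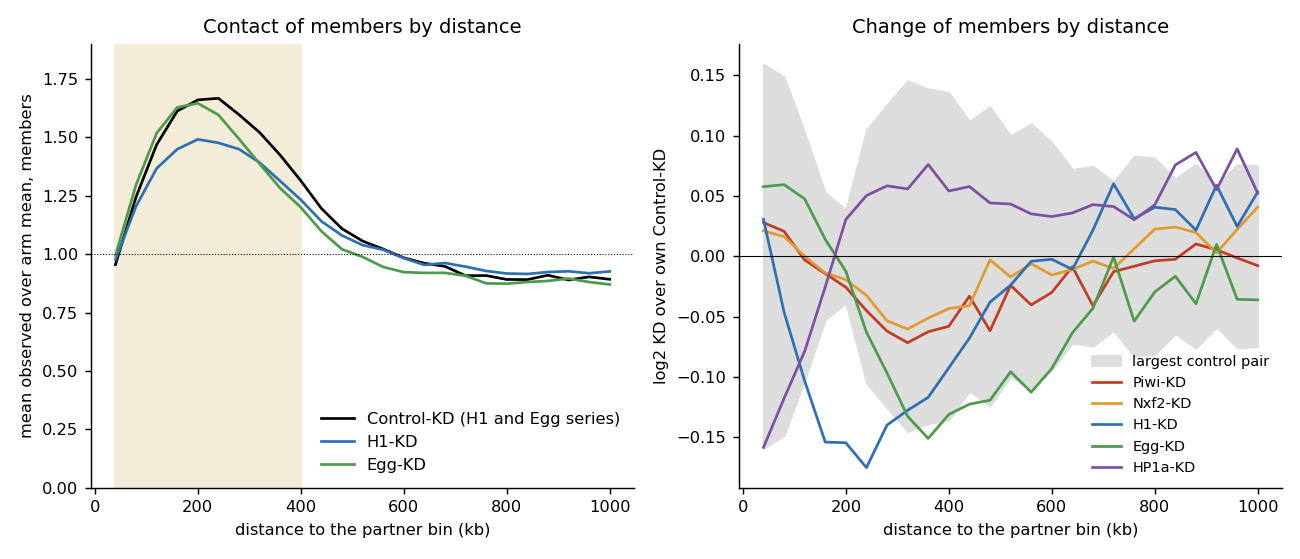
Left, mean contact of the members over the arm mean by distance to the partner bin (kb) in H1-KD, Egg-KD and their Control-KD, with the distances used to choose members shaded. Right, log2 ratio of KD over own Control-KD by distance, with the largest control pair in grey. H1-KD is below it from 120 to 280 kb.

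The excess of contact in members reached past the distances of the rule and turned into a deficit farther out. From 80 kb on, the mean contact of members was above that of the other bins up to 680 kb in 3 Control-KD matrices and up to 560 kb in Nxf2-series Control-KD. From 400 kb to 1 Mb the median of members was 0.961, 0.905, 0.947 and 0.954 in the 4 Control-KD matrices and that of the other bins 0.927, 0.937, 0.924 and 0.929, so that members were higher in 3 of them. From 1 to 2 Mb members were lower in all 4, at 0.816 to 0.853 compared with 0.967 to 0.975. In the 4 Control-KD matrices, contact over 2 Mb away in the same arm had a median of 0.767 to 0.798 times the arm mean in members and 1.01 to 1.02 in the other bins. Since every bin has the same total after ICE, this is tied to the local excess. Contacts at 40 to 400 kb made up 48.2 to 51.4% of a member's total and 34.5 to 38.3% of that of other bins, and contacts with other arms 11.7 to 14.96% and 15.6 to 18.6%. In H1-KD the local share of members was 46.2% and the share over 2 Mb was 18.5%, compared with 51.4 and 16.2% in its Control-KD. The other bins moved in the same directions, with 36.6 and 24.2% in H1-KD compared with 38.3 and 22.8%.

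With this lower total taken into account, distal contacts of members were more often with other members. The preference is the log2 ratio of summed contact to that expected from the distance and from the total of each bin at these distances, over 4460 pairs of members more than 2 Mb apart in the same arm. It was 0.27, 0.25, 0.27 and 0.27 in the 4 Control-KD matrices, and lay between -0.20 and -0.17 for members with the lowest decile of bins. In successive deciles of partner bins in Piwi-series Control-KD, the preference of members was 0.27, 0.17, 0.12, 0.067, 0.017, 0.004, -0.031, -0.077, -0.16 and -0.20. Bins of the lowest decile also met each other more than expected, by 0.18 to 0.21. Of 28 pairs of long runs in the same arm, 26 were above 0 in all 4 Control-KD matrices and 22 in all 9. The pair of runs at X 4920001 to 5240000 and X 19840001 to 20080000 had 0.49, 0.69, 0.62 and 0.75 in Control-KD compared with 0.14 in Piwi-KD, 0.81 in Nxf2-KD, 0.41 in Egg-KD, 0.45 in H1-KD and 0.12 in HP1a-KD, from 77 to 172 contacts in a Control-KD matrix.

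Summed over all arms, this preference within arms was lower in Piwi-KD, H1-KD and Egg-KD than in every Control-KD. It was 0.22 in Piwi-KD, a difference of -0.0417 to its own Control-KD, 0.21 in H1-KD (-0.059) and 0.22 in Egg-KD (-0.0538), while the largest difference in a control pair was 0.0146. In HP1a-KD it was 0.30, higher than in every Control-KD, with a difference of 0.0295. Nxf2-KD, at 0.25, differed by -0.0051. The counting error of a value was 0.0059 to 0.0098. With any of the 4 Control-KD matrices as denominator, the differences of HP1a-KD, Egg-KD, H1-KD and Piwi-KD kept their sign and stayed above 0.0146 in size. By arm, H1-KD was below its own Control-KD everywhere. Piwi-KD and Egg-KD were above theirs on X, at 0.2457 against 0.2344 and 0.2917 against 0.2755. HP1a-KD was below its own on 2R, at 0.3529 against 0.4192. On the remaining arms these knockdowns moved as in the sum.

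**Figure D5:**
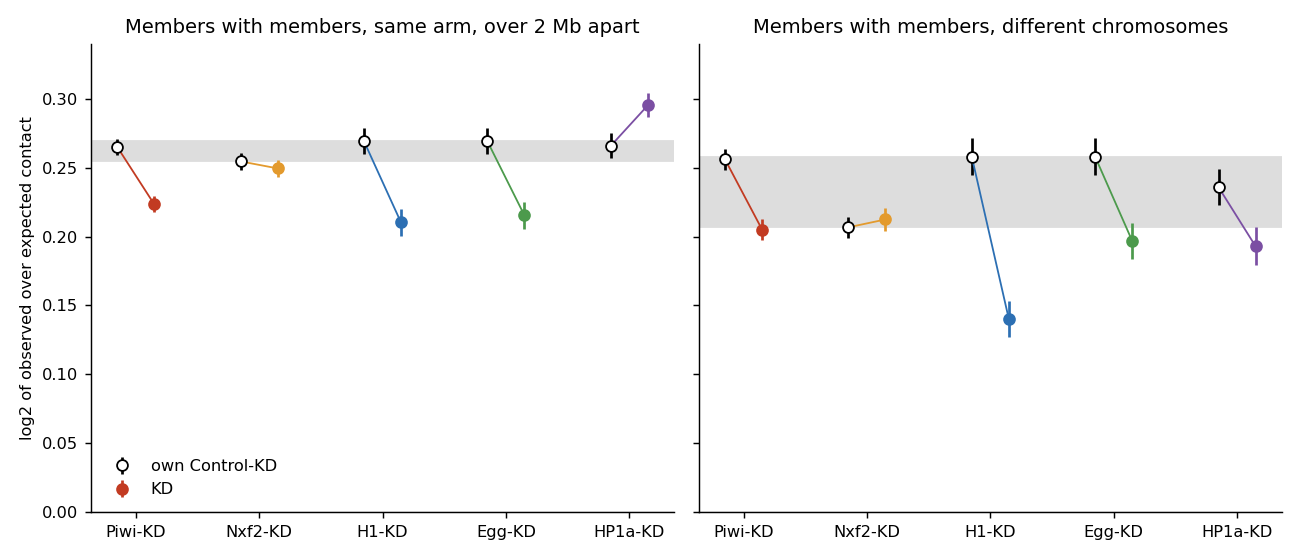
Preference of members for other members (log2 of observed over expected contact), over 2 Mb apart in the same arm (left) and on different chromosomes (right), for each KD and its own Control-KD. Error bars are counting errors and the grey band is the range of the 4 Control-KD matrices. In the same arm, Piwi-KD, H1-KD and Egg-KD lie below the band and HP1a-KD above it, and between chromosomes H1-KD has the lowest value, 0.14.

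Between chromosomes, over 18448 pairs, the preference of members for each other was 0.26, 0.21, 0.26 and 0.24 in the 4 Control-KD matrices. It was 0.14 in H1-KD, below all of them, a difference of -0.118, where the largest control pair had 0.0512. The difference was -0.0612 in Egg-KD, -0.051 in Piwi-KD, -0.0429 in HP1a-KD and 0.0057 in Nxf2-KD. With Nxf2-series Control-KD, the H1-KD difference was -0.0666, that of Egg-KD -0.01 and that of Piwi-KD -0.0017. Pairs within the next decile of bins had 0.112 in H1-KD and 0.1523 in Egg-KD, compared with 0.1708 in their Control-KD. Piwi-KD had 0.1499 against 0.1661 in its own, whereas HP1a-KD had 0.1436 against 0.1366. In the same arm this decile had 0.0886 in H1-KD and 0.12 in Egg-KD, against 0.1294. There Piwi-KD had 0.1153 against 0.1365 and HP1a-KD 0.1411 against 0.118. Single pairs of runs varied widely. The run of 12 bins at 17720001 to 18200000 on 2L and that at 3200001 to 3640000 on 3R had preferences of 1.51, 1.62, 1.72 and 1.84 in Control-KD compared with 1.57 in Piwi-KD, 1.81 in Nxf2-KD, 1.38 in Egg-KD, 1.51 in H1-KD and 1.54 in HP1a-KD, from 141 to 546 contacts per matrix. The same 2L run and the longest run on 3R, at the other end of that arm, had -0.92, -0.95, -0.97 and -1.22 in Control-KD and -1.03 to -0.87 in the KD matrices. Both the 2L run and the first 3R run lie toward the centromere on their arms, and the part of this position in the contacts was not tested. Without the pair of arms 2L and 3R, an alternative added after these values had been seen, the preference was 0.19 to 0.25 in Control-KD and 0.14 in H1-KD.

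Boundaries were less frequent in members than in other bins. A boundary is a local minimum of the contact between the 5 bins before and the 5 bins after a bin, at least 0.1 (log2) below the maxima on both sides. Insulation uses contacts of up to 400 kb, as the rule does, so these counts are a description. In Control-KD, 15 to 20 members were boundaries (6.12 to 8.16%), compared with 10.73 to 11.45% of the other bins. The KD matrices had 19 in Piwi-KD, 19 in Nxf2-KD, 20 in Egg-KD, 15 in H1-KD and 12 in HP1a-KD. Of the 20 long runs, 4 to 9 had a boundary inside in a Control-KD matrix and 4 to 9 in a KD matrix. The difference depended on the window. With 3 bins on each side, 11.02 to 12.24% of members were boundaries in Control-KD and 11.02 to 13.06% in the KD matrices, close to the 13.2 to 14.2% of all tested bins, and with 8 bins 2.04 to 4.49% were, compared with 8.01 to 8.83%.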

How the data were processed

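Hi-C of OSCs was analysed in 9 matrices of 18 samples, and the ChIP-seq and DamID-seq samples of the series were left out. The authors cut with HindIII, counted contacts of 40-kb bins on dm3 with HiCExplorer, summed 2 replicates, removed bins of low or high coverage, applied ICE and normalised between the matrices being compared. The deposited signal per bin pair is thus corrected and is no count. Contacts were recovered from it with a fitted factor per bin, and 100% of values under 50 came out within 0.01 of a whole number. Members and lists were chosen with earlier results of these data known. Named regions are the 5 longest runs, the 3 members of highest mean rank, the 2 largest decreases and the largest increase per knockdown, the 3 bins on each side of the threshold, and probe bins. Other named runs and run pairs were chosen after their values were seen. Expected distal contact was fitted by iterative balancing. Programs were tested on simulated data. Alternatives were other Control-KD matrices, members chosen without the own Control-KD, recovered contacts, other distances, limits and windows, and bins away from X or removed bins. Analyses ran in Python 3.11.15 with pandas 2.3.3, NumPy 2.4.6, SciPy 1.17.1 and, for figures, matplotlib 3.10.9.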

Additional observations from a re-analysis of the deposited data

Results flagged for a closer look

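The preference of members for members over 2 Mb away in the same arm moved in opposite directions between knockdowns, each by more than any pair of Control-KD matrices: the difference to the own Control-KD was 0.0295 in HP1a-KD, and -0.0417 in Piwi-KD, -0.059 in H1-KD and -0.0538 in Egg-KD. These values are sums over arms. On X the preference rose in Piwi-KD (0.2344 to 0.2457) and Egg-KD (0.2755 to 0.2917), and on 2R it fell in HP1a-KD (0.4192 to 0.3529). Pairs within the next decile of bins moved in the same directions as the summed values. With 1 merged matrix per group, the difference between knockdowns was not tested. The time of KD also differed between HP1a-KD and Piwi-KD.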

How the results depend on the processing

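No paired analysis was possible because the replicates of each group were merged before deposit. The values limit what can be said: there is 1 matrix per group, and control pairs contain counting error plus differences from one experiment to another, so small changes were not detectable against them. The sign of the H1-KD change and its distal differences held under all alternatives run. The cause was not tested for any change listed here.

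With Nxf2-series Control-KD as denominator, the change of members was 0.0028 in Egg-KD and -0.1051 in H1-KD, the decreased members were 3 in Egg-KD, 52 in H1-KD and 18 in HP1a-KD, the same-arm difference was -0.0312 in Piwi-KD, -0.0392 in Egg-KD, -0.0444 in H1-KD and 0.0408 in HP1a-KD, and that between chromosomes -0.0017 in Piwi-KD, -0.0666 in H1-KD and -0.01 in Egg-KD. With Piwi-series Control-KD, the change was -0.0211 in Egg-KD and -0.1223 in H1-KD, and in Nxf2-KD 28 members decreased, with differences of -0.0156 in the same arm and -0.0436 between chromosomes. With H1/Egg-series Control-KD, the change was -0.0641 in Piwi-KD and -0.072 in Nxf2-KD, 32 and 33 members decreased, and Nxf2-KD differed by -0.0197 in the same arm and -0.0455 between chromosomes. With HP1a-series Control-KD, Nxf2-KD had a change of -0.0525, 25 decreased members and a same-arm difference of -0.0164. The difference in the share of members' contacts over 2 Mb, in percentage points, became -0.276 in Egg-KD, 1.183 in H1-KD and 0.37 in Nxf2-KD with HP1a-series Control-KD, and 0.428 and 0.156 in HP1a-KD with H1/Egg-series and Nxf2-series Control-KD.

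On recovered contacts before ICE, the change was 0.0007 in Egg-KD, -0.1147 in H1-KD and 0.1627 in HP1a-KD, and decreased members were 2 in Piwi-KD, 0 in Nxf2-KD, 2 in Egg-KD, 23 in H1-KD and 0 in HP1a-KD. Median densities were then 1.333, 1.2992, 1.3162 and 1.3147 in the 4 Control-KD matrices, 1.2882 in Piwi-KD, 1.2638 in Nxf2-KD, 1.2999 in Egg-KD, 1.2528 in H1-KD and 1.3909 in HP1a-KD. At 2 control-pair spreads, 51 members decreased in Piwi-KD, 21 in Nxf2-KD, 46 in Egg-KD, 160 in H1-KD and 28 in HP1a-KD, where 7.54, 5.26, 8.84, 16.4 and 7.13% of all tested bins decreased. At 4 spreads the members were 3, 0, 7, 34 and 2, where 0.57, 0.448, 0.733, 2.53 and 0.53% of all tested bins decreased. At 80 to 400 kb, 0 members decreased in Nxf2-KD and 4 in HP1a-KD, without X 0 and 3, and away from removed bins 0 and 4. In runs of 1 to 3 bins, a split added after seeing the data, the change was -0.0001 in Piwi-KD, 0.0016 in Egg-KD and -0.1128 in H1-KD. Same-arm differences over 1 Mb apart were -0.0676 in Piwi-KD, -0.0791 in Egg-KD, -0.1003 in H1-KD and 0.0481 in HP1a-KD. Over 4 Mb apart they were -0.0326 in Piwi-KD, 0.0097 in Nxf2-KD, -0.0382 in Egg-KD and 0.0197 in HP1a-KD, and without X -0.0518 in Piwi-KD and -0.0673 in Egg-KD.

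With insulation over 3 bins, boundaries at members were 28, 30 and 29 in H1/Egg-series, HP1a-series and Piwi-series Control-KD, 32 in H1-KD, 31 in HP1a-KD and 30 in Piwi-KD, with 13.2 to 14.2% of all tested bins. Over 8 bins they were 6, 6, 8 and 5 in H1/Egg-series, HP1a-series, Nxf2-series and Piwi-series Control-KD, 11 in Egg-KD, 5 in H1-KD, 7 in HP1a-KD, 10 in Nxf2-KD and 8 in Piwi-KD, with 8.01 to 8.83% of all tested bins. Lists of the top 20% shared 90.43% in Egg-KD, 86.76% in H1-KD, 88.39% in HP1a-KD and 88.8% in Piwi-KD, and those of the top 5% shared 78.05% in Egg-KD, 78.05% in Nxf2-KD and 77.24% in Piwi-KD.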
